A study of Mus musculus with 17 samples.

Results

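The locus described here holds 4 noncoding rows of the mouse heart ventricle, taken by position from a table of 23940 rows. They are all rows whose deposited position overlaps a fixed stretch of 70 kb on chromosome 18. It is known for Braveheart (Bvht), for Carmn, and for the microRNAs miR-143 and miR-145, whose genes (Mir143 and Mir145a) lie inside Carmn as RefSeq annotates it. Total RNA came from the right ventricle (RV) or left ventricle (LV) of male C57Bl/6 mice on postnatal day 0 (P0, before the ductus arteriosus closes), day 3 (P3, a transition stage) or day 7 (P7, when most heart muscle cells have reached terminal differentiation). No treatment or gene change was applied. Each of the 6 groups held 3 strand-specific libraries of biological replicates, apart from RV at P7 with 2. The ventricles were whole tissue, so fewer cells of a type and less RNA per cell cannot be told apart, and no cell type markers were looked up because the rows carry no gene names.

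Bvht is a mouse long noncoding RNA required for embryonic stem cells to enter the cardiac lineage, where it acts before the mesoderm regulator Mesp1. Carmn is a noncoding RNA of cardiac precursor and smooth muscle cells and is the host of miR-143 and miR-145. These microRNAs favour the contractile state of vascular smooth muscle, and the pair is also expressed in the developing heart.

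The rows were named by comparing their spans with annotated genes. Starts, ends and distances here follow increasing position, not the direction of transcription. NONMMUT032610, positions 61805532 to 61825192, spans 19661 bases. Carmn is the 1 RefSeq gene of exactly that span on GRCm38. TCONS_00028783, positions 61805452 to 61825191, covers the same stretch, begins 80 bases before it and ends 1 base short of it. NONMMUT032611, positions 61850700 to 61852038, spans 1339 bases, like the antisense gene Gm38165 of GENCODE M21, which lies within the span of Il17b. It lies 25508 bases past the Carmn row, the same distance as between Carmn and Gm38165 in the annotation. NONMMUT032598, positions 61783849 to 61807133, spans 23.3 kb and overlaps the Carmn row by 1602 bases. RefSeq Bvht spans 7.83 kb and overlaps RefSeq Carmn by 1608 bases, so this row ends where Bvht ends and starts 15.5 kb before it. None of the 4 rows is a microRNA. Mir145a begins 1947 bases and Mir143 3318 bases into the RefSeq span of Carmn, so both fall within the stretch covered by the Carmn rows. Carmn of GENCODE M21 spans 15913 bases, and its lowest position lies 3747 bases above that of RefSeq Carmn. Both microRNA genes therefore lie outside the GENCODE span.

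**Figure D1:**
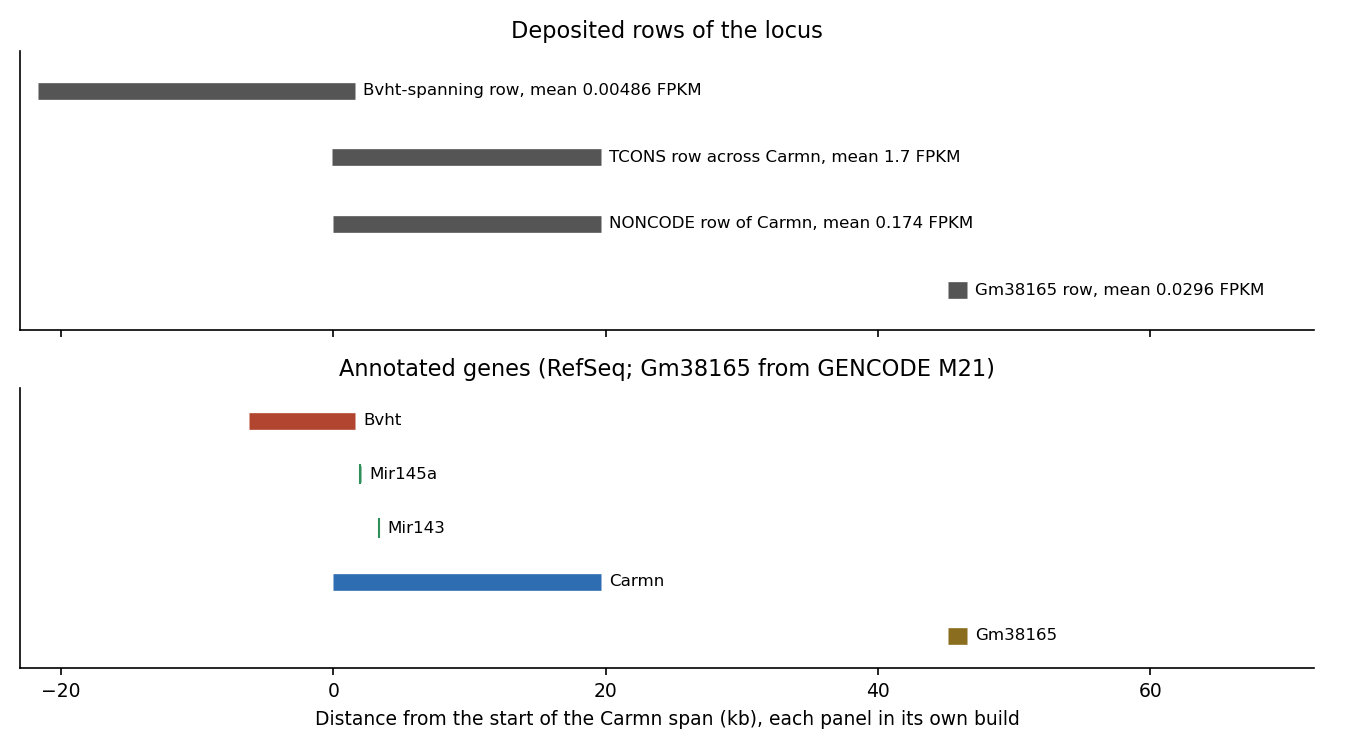
The 4 deposited rows (upper panel, with the mean FPKM over 17 libraries) and the annotated genes (lower panel), drawn by distance in kb from the start (lowest position) of the Carmn span, each panel in its own genome build. Both Carmn rows cover Mir145a and Mir143, the Bvht-spanning row reaches 15.5 kb further than Bvht, and the TCONS row has the highest mean, 1.70 FPKM.

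The level of the rows differed widely in FPKM, a value per length of the feature and per depth of its library. TCONS_00028783 averaged 1.70 ± 0.520 FPKM over the libraries (SD, n = 17), above or equal to 91.6% of the 11079 rows tested. NONMMUT032610 averaged 0.174 ± 0.0971 FPKM (SD, n = 17), near the middle of the tested rows at 48.4%. NONMMUT032611 averaged 0.0296 ± 0.0532 FPKM and NONMMUT032598 0.00486 ± 0.0200 FPKM (SD, n = 17 each). Of the 4, 3 passed the filter of at least 0.1 FPKM in at least 2 libraries, and NONMMUT032598 did not.

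The values also show how many fragments stand behind them. In each library, 50.5% to 53.1% of the low values (under 40 steps), times the span of the row, were whole multiples of 1 step, within 0.005 of a step. The other low values were not whole at the span, and their counted length was not looked for outside the locus. With a step taken as 0.5 of a fragment, the libraries would hold 13.8 to 20.5 M fragments. A counted length was taken at or just above the smallest length where all values above 0 were whole within 0.05 of a step. Multiples of it would fit as well, with more fragments. For TCONS_00028783 all 17 values were whole numbers of steps, within 0.0393 of a step, at a counted length of 4861 bases. No exonic length of Carmn in GENCODE lies near that length. TCONS_00028783 would then rest on 89 to 242.5 fragments per library. Counting alone would give an error of 10.6% at the lowest and 6.42% at the highest. NONMMUT032610 gave whole steps at 1780 bases, beside 1778 bases of exon in the longer GENCODE model of Carmn, although the GENCODE gene is shorter than the row. It rested on 1.5 to 10.5 fragments per library, with an SD of 2.83 fragments where the square root of the mean is 2.32. NONMMUT032611 gave whole steps at 491 bases, beside 486 bases of exon in Gm38165, and held 0 to 1.5 fragments per library. These figures are inferred from the values and cover counting error only.

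The row that spans Bvht was listed at 0 in 16 of 17 libraries. The exception was LV P0 replicate 1, with 0.0826 FPKM. If the row was counted over 588 bases, the exonic length of the longer GENCODE model of Bvht, that value equals 0.997 fragments. At the same length, 3 fragments would be 0.262 to 0.370 FPKM in the libraries at 0. This was taken as a working upper bound on the expected count where 0 was seen, and is not a hard ceiling. The length used by the authors for this row is not given in the sources used here.

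TCONS_00028783, the TCONS row across Carmn, was highest at birth in the left ventricle. Its LV libraries held 2.03, 2.19 and 2.71 FPKM at P0, then 1.24, 0.987 and 1.74 FPKM at P3, and 1.19, 1.10 and 1.91 FPKM at P7. All LV libraries of P3 and P7 lay below all LV libraries of P0, while P3 and P7 overlapped. Of all tested rows, 26.3% likewise lay lower without overlap for P7 against P0 in LV, and 11.0% for P3 against P0.

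In the right ventricle TCONS_00028783 held 1.33, 2.44 and 2.24 FPKM at P0, 1.89, 1.39 and 1.76 FPKM at P3, and 1.02 and 1.66 FPKM at P7. The first P0 library stood well below the other two and overlapped the later ages. The highest RV value of P7 lay below 2 of 3 RV values of P0.

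**Figure D2:**
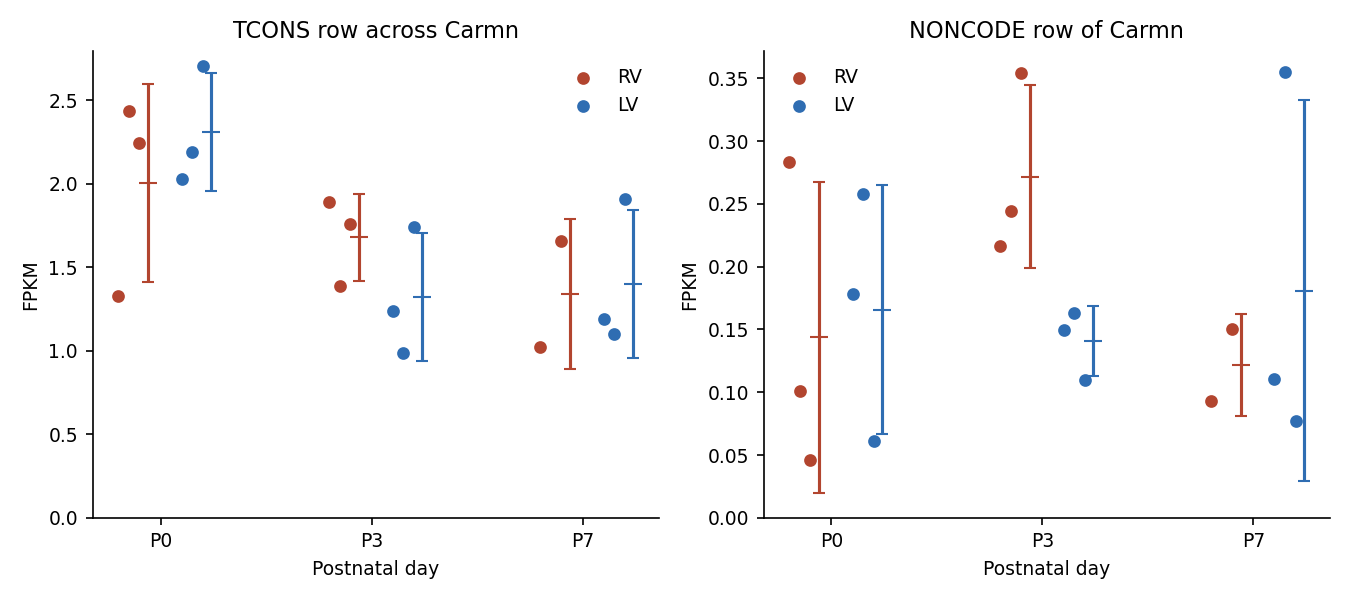
FPKM of the TCONS row across Carmn (left) and the NONCODE row of Carmn (right) by postnatal day, with RV in red and LV in blue; each point is 1 library and each bar the mean ± SD (n = 3, RV at P7 n = 2). The vertical scales differ, the left row spans 0.987 to 2.71 FPKM and the right row 0.0464 to 0.355 FPKM.

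No change of TCONS_00028783 with age reached an adjusted p under 0.05 within a ventricle. At P7 it averaged 1.40 ± 0.443 FPKM in LV, against 2.31 ± 0.354 FPKM at P0 (SD, n = 3 each). The log2 difference was -0.71 ± 0.28 SE, with a 95% interval of -1.30 to -0.12 and a limma adjusted p of 0.109. At P3 the LV mean was 1.32 ± 0.384 FPKM (SD, n = 3), a log2 difference from P0 of -0.78 ± 0.28 SE (limma adjusted p = 0.219). For P7 against P3 the LV log2 difference was 0.07, with an interval of -0.52 to 0.66 (limma adjusted p = 0.940). In RV the P7 mean was 1.34 ± 0.448 FPKM (SD, n = 2), against 2.005 ± 0.591 FPKM at P0 (SD, n = 3). That log2 difference was -0.54 ± 0.31 SE, with an interval of -1.20 to 0.12 (limma adjusted p = 0.368), and single libraries decided its size. Leaving out RV P0 replicate 1 gave -0.80, RV P7 replicate 2 gave -0.86, RV P0 replicate 2 gave -0.38 and RV P7 replicate 1 gave -0.22, with limma adjusted p from 0.202 to 0.899. The RV mean at P3 was 1.68 ± 0.260 FPKM (SD, n = 3), with log2 differences of -0.21 from P0 (limma adjusted p = 0.808) and of -0.33 for P7 against P3 (limma adjusted p = 0.739). With single libraries left out these ran from -0.47 (without RV P0 replicate 1) to -0.053 (without RV P0 replicate 2), and from -0.65 (without RV P7 replicate 2) to -0.0063 (without RV P7 replicate 1).

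None of the 3 locus rows tested was called in any of these 6 age comparisons. All rows together gave calls for 11.2% of rows at P7 against P0 in LV and 5.55% in RV. The shares were 1.89% in LV and 2.46% in RV for P3 against P0, and 1.34% and 0.740% for P7 against P3. At an unadjusted p under 0.05, limma found 1 locus row, TCONS_00028783, at P7 against P0 in LV, where 26.9% of all tested rows did, and at P3 against P0 in LV, where 12.2% did, and none in the other 4. The median of all tested rows was itself lower at P7 than at P0, by a log2 difference of -0.32 in LV and -0.27 in RV. Its size depended on the pseudocount, with -0.55 in LV and -0.43 in RV at 0.01, and -0.067 and -0.060 at 1. Whether a shift of this size holds for rows at the level of TCONS_00028783 was not tested. After median scaling, which takes the median shift off every row alike, the P7 against P0 difference of TCONS_00028783 was -0.39 in LV and -0.26 in RV.

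Averaging the P7 against P0 differences of both ventricles, a comparison added after the values were seen, gave TCONS_00028783 a log2 difference of -0.63 ± 0.21 SE. The interval ran from -1.07 to -0.18 and the limma adjusted p was 0.0423. The fit took RV and LV libraries as independent. Whether same-numbered RV and LV libraries came from the same hearts is not given in the labels. If they did, this SE, interval and adjusted p would be too small. This comparison called 20.5% of all tested rows, with a median log2 difference of -0.29 over them. Of the tested rows, 24.1% had a log2 difference as low or lower. Under median scaling the log2 difference of the row was -0.32 (limma adjusted p = 0.303). Its adjusted p was 0.0173 to 0.234 with single libraries left out, and was above 0.05 without LV P0 replicate 2 or 3, LV P7 replicate 1 or 2, RV P0 replicate 2 or 3, or RV P7 replicate 1.

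The libraries fell into separate sets by a mitochondrial row, with 132 to 247 FPKM in 6 libraries and 7.93 to 25.8 FPKM in 11. No P7 library was among the 6. With the library set as a term in the fit, the P7 against P0 log2 difference of TCONS_00028783 was -0.58 in LV (limma adjusted p = 0.181), -0.41 in RV (limma adjusted p = 0.510) and -0.50 over both (limma adjusted p = 0.106). Within the low set the P7 against P0 log2 difference of TCONS_00028783 was -0.60 in LV, -0.44 in RV and -0.52 over both (limma adjusted p = 0.166 for the last). P3 against P0 gave -1.02 in LV in the low set and -0.84 in the high set, and in RV -0.36 and -0.29, each resting on 1 or 2 libraries of an age.

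NONMMUT032610, the NONCODE row with the span of Carmn, showed no common course in the ventricles. Its RV libraries held 0.283, 0.101 and 0.0464 FPKM at P0, 0.216, 0.245 and 0.354 FPKM at P3, and 0.0932 and 0.150 FPKM at P7. The LV libraries held 0.178, 0.258 and 0.0610 FPKM at P0, 0.150, 0.163 and 0.110 FPKM at P3, and 0.111, 0.355 and 0.0772 FPKM at P7. In RV all P7 values lay below all P3 values, as for 20.5% of tested rows, and all other pairs of ages overlapped in both ventricles. The log2 difference for RV at P3 against P0 was 0.71, with an interval of -0.17 to 1.59 (limma adjusted p = 0.472), and for P7 against P3 -0.74, with an interval of -1.72 to 0.24 (limma adjusted p = 0.589). Within the library sets the P3 against P0 value in RV was 0.31 (low) and 1.37 (high). For P7 against P0 the log2 difference was 0.03 in LV, with an interval of -0.85 to 0.91, and -0.03 in RV, with an interval of -1.01 to 0.95. The sign of both turned under other settings.

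The share of NONMMUT032610 in the summed FPKM of both Carmn rows ranged from 2.03% to 24.4% over the libraries, with a median of 8.49%. Since the rows cover the same stretch, reads could have been divided between them. Summed, they held 1.58 ± 0.359 FPKM at P7 in LV, against 2.47 ± 0.281 FPKM at P0 (SD, n = 3 each). All LV sums of P7 lay below all LV sums of P0, as for 26.3% of single tested rows. TCONS_00028783 makes up most of the sum and had the same pattern alone, so this is no separate result. In RV the sum was 1.46 ± 0.489 FPKM at P7 (SD, n = 2), against 2.15 ± 0.478 FPKM at P0 (SD, n = 3), with overlap. Across the 17 libraries the log2 levels of the rows had Pearson's r = -0.32 (permutation p = 0.208) and Spearman's rho = -0.34 (permutation p = 0.190), both two-sided, in the 1 relation computed. The permutations ignored ventricle and age, so they cannot set a relation between libraries apart from differences between groups. Without the 2 libraries farthest from the median of TCONS_00028783, r was -0.50. Within the low set r was -0.16 (n = 11, permutation p = 0.622), and within the high set -0.50 (n = 6).

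NONMMUT032611, the row with the span of Gm38165, was above 0 in 5 libraries. It held 0.114 and 0.122 FPKM in RV P0 replicates 1 and 2, 0.164 FPKM in RV P7 replicate 2, 0.0496 FPKM in LV P0 replicate 1 and 0.0543 FPKM in LV P3 replicate 1. No group had all its libraries above 0. Whether strand was used in counting is not given in the sources used here, so reads from Il17b, which encodes a cytokine, cannot be told apart from reads of this antisense gene. Its smallest limma adjusted p over the age comparisons was 0.367, for RV at P3 against P0, and with at most 1.5 fragments in a library no change of size could be resolved.

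Between the ventricles, no test of the Carmn rows passed the threshold. At P0, TCONS_00028783 averaged 2.005 ± 0.591 FPKM in RV and 2.31 ± 0.354 FPKM in LV (SD, n = 3 each), with a log2 difference of -0.23 and an interval of -0.82 to 0.36. At P3 it averaged 1.68 ± 0.260 FPKM in RV and 1.32 ± 0.384 FPKM in LV (SD, n = 3 each), with a log2 difference of 0.35 and an interval of -0.24 to 0.94. For P7 the values were 1.34 ± 0.448 FPKM in RV (SD, n = 2) and 1.40 ± 0.443 FPKM in LV (SD, n = 3), with a log2 difference of -0.06 and an interval of -0.71 to 0.60. The groups overlapped at each age. Within the library sets the RV minus LV value was -0.21 (low) and -0.26 (high) at P0, and 0.45 (low) and 0.29 (high) at P3.

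Over the 3 ages the RV minus LV log2 difference of TCONS_00028783 was 0.02, with an interval of -0.33 to 0.37, and 0.06 in the low set alone. The P7 against P0 change differed between RV and LV by 0.17, with an interval of -0.71 to 1.06 (limma adjusted p = 1). NONMMUT032610 was higher in every RV than in every LV library at P3, as for 5.22% of tested rows, with 0.272 ± 0.0729 FPKM in RV and 0.141 ± 0.0276 FPKM in LV (SD, n = 3 each). Its log2 difference there was 0.62, with an interval of -0.26 to 1.49 (limma adjusted p = 0.966), and within the sets 0.39 (low) and 0.73 (high). None of the 3 locus rows was called in these comparisons by limma, and none had an unadjusted p under 0.05. Over all rows the share called was 0% at P0 and for the difference in change, and 0.00903% at P3, at P7 and over the ages.

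**Figure D3:**
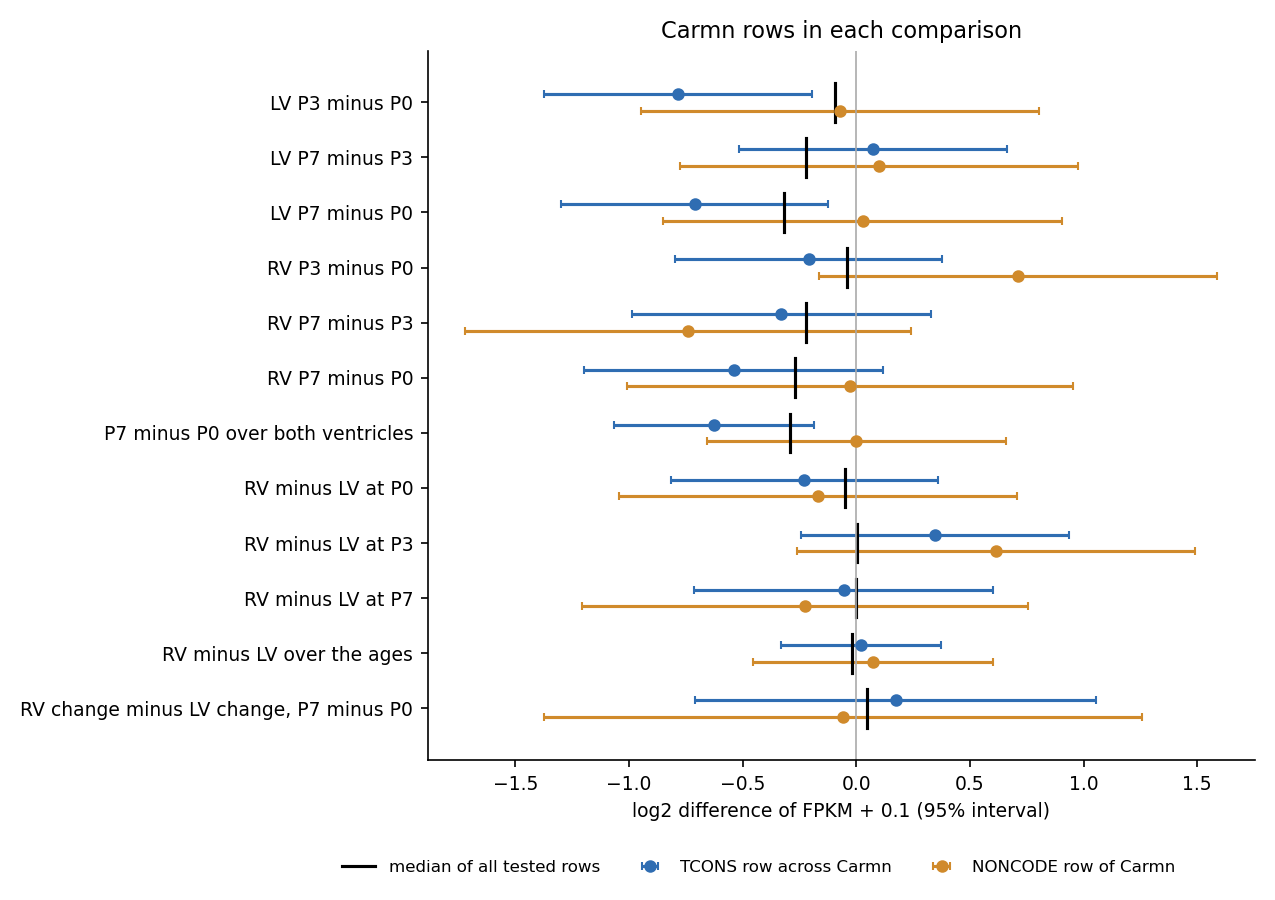
Log2 differences of FPKM + 0.1 for the TCONS row across Carmn (blue) and the NONCODE row of Carmn (orange) in each comparison, with 95% intervals; the black line is the median of all 11079 tested rows. The intervals of the TCONS row lie below 0 for P3 and P7 against P0 in LV and for P7 against P0 over both ventricles, and the interval of the last runs from -1.07 to -0.18.

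Of the surrounding 19 rows in the 500 kb on either side, 17 were tested, and for P7 against P0 limma called 1 higher and 1 lower in LV, and the same counts in RV. That is 11.8% of them in each ventricle, against 11.2% of all tested rows in LV and 5.55% in RV. Their median log2 difference was -0.26 in LV and -0.12 in RV, against -0.32 and -0.27 over all tested rows. Over both ventricles 2 were called higher and 2 lower, 23.5% of them against 20.5% of all tested rows.

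Among 1429 rows elsewhere with a position and a mean of at least 1 FPKM, the 3 most like TCONS_00028783 over the 17 libraries were ranked by Pearson's r of log2(FPKM + 0.1), given as a description. The closest, on chromosome 9, positions 66876826 to 66896925, had r = 0.84 and LV means of 13.7 FPKM at P0, 7.87 at P3 and 5.54 at P7. Next came chromosome 2, positions 176969392 to 176971217, with r = 0.81, and chromosome 4, positions 118032604 to 118033899, with r = 0.80. All 3 had their highest LV and RV means at P0. How far the median shift between ages given above enters at their level was not tested.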

How the data were processed

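The authors deposited 1 table per library, read here as FPKM, fragments per kilobase and scaled to library depth. The unit is inferred from the steps of low values. The submitters' processing notes name STAR 2.4.0j and mm10. No label or file header states the counter, the annotation or the use of strand in counting. Positions are printed as in the files and taken to be mm9, since they differ from those of the same spans on GRCm38 (the build of mm10). Annotation was therefore matched by span and distance, and no position was converted. Libraries implied 13.8 to 20.5 M fragments, with 34.1% to 49.2% of rows at 0.

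Values were taken as log2(FPKM + 0.1) and tested with limma 3.58.1 (R 4.3.3); this scale understates changes of low rows. All 17 libraries entered with a mean per group, a variance trend and robust moderation. Benjamini-Hochberg adjustment ran over 11079 rows, two-sided, with calls at adjusted p under 0.05. The fit was tested on simulated data. The replicate block differed by comparison. Age comparisons, with the mean over both ventricles, took replicate number as a term shared across ages. That form does not account for RV and LV libraries from the same heart. Comparisons between the ventricles paired same-numbered libraries within an age. Correlations used 100000 permutations in scipy 1.17.1. All rows of the locus are named by position. The 3 rows most like the most abundant one were taken by rule. The members, lists and tests were chosen with earlier results of these data known. The comparison over both ventricles and the library sets (above or below 100 FPKM of a mitochondrial row) were added after the values were seen.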

Additional observations from a re-analysis of the deposited data

How the results depend on the processing

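In the 11 planned comparisons no locus row was called by limma. This held in all 300 results, each 1 comparison under 1 alternative setting, and most settings gave several comparisons from the same fit. The settings were another pseudocount, no filter, median scaling, fewer groups, no variance trend and sums per position. Others were the replicate block, the library sets and single libraries left out. Many of these results left out a library of a group not compared, which leaves the difference itself unchanged. The main comparisons between the ventricles called at most 0.00903% of all tested rows, so a count of 0 was near certain there. The number of results is therefore no measure of support. Over both ventricles, where 1 row was called at P7 against P0, the count was 0 without a filter, with median scaling, without the variance trend, with the library set as a term and in the low set alone, and ran from 0 to 1 with single libraries left out. The high set holds no P7 library and gave no value there. Over both ventricles the replicate block, which did not pair hearts here, gave TCONS_00028783 a log2 difference of -0.56 (adjusted p = 0.0497). It changed no call. Same-numbered RV and LV libraries share only a label number. Their deviations from the group means correlated at 0.0451 to 0.172 in 8 pairs, and in 8 of 8 the same number was the best match. This is only a hint from the data. Such deviations sum to 0 within a group, so matches within an age are not independent and 8 of 8 overstates it.

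Among the log2 differences printed, signs turned only where the 95% interval of the main fit included 0. The largest of these in size was -0.23, for RV minus LV of TCONS_00028783 at P0. For NONMMUT032610 the P7 against P0 log2 difference in LV was -0.13 with the library set as a term and -0.30 in the low set, and in RV 0.071 with a pseudocount of 0.01 and 0.25 with median scaling. With single libraries left out these values ran from -0.38 to 0.30 in LV and from -0.34 to 0.36 in RV. For TCONS_00028783, RV minus LV at P7 was 0.17 with the replicate block. Leaving out single libraries moved it from -0.38 to 0.27 there, from -0.39 to 0.028 at P0, from -0.087 to 0.13 over the ages, from -0.15 to 0.50 for the difference in change, and from -0.16 to 0.28 for P7 against P3 in LV. The cause was not tested. Depth limits NONMMUT032598, NONMMUT032610 and NONMMUT032611, which rest on few fragments.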
